A study of Mus musculus with 9 samples.

Results

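The plasminogen activation and tissue factor genes described here are Plau, Plat, Plaur, Serpine2, Serpinb2, F3, Thbd, Tfpi and Tfpi2. They were chosen by symbol for their roles in plasmin formation and in the start of coagulation, and all 9 were found among the 55822 gene IDs of the count table. Whole extrahepatic bile ducts (EHBDs) of C57BL/6 mice (C57BL/6J in the study's methods) of both sexes were measured by bulk RNA-Seq 24 hours after surgery. The sham group (4 mice) had a laparotomy, and the BDL group (5 mice) had, besides, a tie placed on the duct at its duodenal end, which blocks bile. The animals were wild type, no gene was altered in either group, and each library came from 1 mouse. The question asked of these genes was how their transcripts differed between obstructed and sham-operated ducts.

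Plasmin, the protease that dissolves fibrin and helps to clear matrix around moving cells, is cut from plasminogen by urokinase (Plau) or by tissue plasminogen activator (Plat). Urokinase acts at the cell surface on its receptor (Plaur), and serpins such as Serpine2 and Serpinb2 inhibit the activators. Clotting starts when tissue factor (F3), kept on epithelial, stromal and perivascular cells, meets factor VII of the blood, and it is held back by tissue factor pathway inhibitor (Tfpi) and, on endothelium and some epithelia, by the thrombin receptor thrombomodulin (Thbd).

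Promoter sequence from RefSeq (GRCm38.p6) was held for 6 of the 9 genes, in 10 windows, of which the 250 bases before each annotated start were read. None was held for Plau, Plat or Thbd, so Plat, which rose, and Thbd, which fell, could not be searched. The 5 windows below are shown because they belong to genes whose transcripts changed after BDL, 4 that rose and 1 that fell. For Tfpi2 the window with the pattern below was picked from its 3. Capitals mark the letters TGANTCA on either strand. This pattern is wider than the sites TGACTCA and TGAGTCA bound by AP-1 dimers, of which Fos and Jun are the best known. The windows are Plaur at chr7:24462233-24462482 on the plus strand, F3 at chr3:121723287-121723536 on the plus strand, Serpinb2 at chr1:107511173-107511422 on the plus strand, Tfpi2 at chr6:3968376-3968625 on the minus strand and Serpine2 at chr1:79858666-79858915 on the minus strand.
Plaur: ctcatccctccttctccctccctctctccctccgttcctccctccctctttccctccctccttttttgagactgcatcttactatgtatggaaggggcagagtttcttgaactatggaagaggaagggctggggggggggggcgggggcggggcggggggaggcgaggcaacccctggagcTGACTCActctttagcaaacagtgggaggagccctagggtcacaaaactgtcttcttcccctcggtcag
F3: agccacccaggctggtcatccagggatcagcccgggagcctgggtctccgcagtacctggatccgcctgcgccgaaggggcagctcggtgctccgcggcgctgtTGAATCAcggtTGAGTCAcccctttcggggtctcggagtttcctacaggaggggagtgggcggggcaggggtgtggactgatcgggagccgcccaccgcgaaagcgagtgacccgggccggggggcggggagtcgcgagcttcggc
Serpinb2: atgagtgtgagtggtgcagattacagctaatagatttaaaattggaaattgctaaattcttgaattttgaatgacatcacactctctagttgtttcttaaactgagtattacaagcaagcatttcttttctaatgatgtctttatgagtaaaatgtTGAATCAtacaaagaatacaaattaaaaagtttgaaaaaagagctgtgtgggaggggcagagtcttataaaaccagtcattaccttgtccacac
Tfpi2: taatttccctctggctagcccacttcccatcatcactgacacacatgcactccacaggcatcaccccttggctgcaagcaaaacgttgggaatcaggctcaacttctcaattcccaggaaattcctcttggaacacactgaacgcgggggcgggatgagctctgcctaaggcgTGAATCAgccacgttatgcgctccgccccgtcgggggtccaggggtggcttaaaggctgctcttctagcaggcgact
Serpine2: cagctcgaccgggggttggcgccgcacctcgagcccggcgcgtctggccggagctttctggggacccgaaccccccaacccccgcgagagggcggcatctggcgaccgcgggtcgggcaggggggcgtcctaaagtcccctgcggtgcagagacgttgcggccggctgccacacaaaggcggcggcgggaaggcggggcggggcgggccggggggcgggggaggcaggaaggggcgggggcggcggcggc
TGANTCA began 69 bases before the start of Plaur, 94 bases before that of Serpinb2 and 77 bases before that of Tfpi2, and stood in F3 at 146 and 135 bases before the start. The letters were TGACTCA in Plaur and TGAGTCA at 135 bases in F3. They were TGAATCA at 146 bases in F3, in Serpinb2 and in Tfpi2. The second Serpinb2 window overlaps the first and holds the same match, and the other 2 of the 3 Tfpi2 windows hold none. No match stood in the windows of Serpine2 or Tfpi, so 4 of the 6 genes held the pattern, against 7.82% of 27025 genes and 6.75% of 32851 windows of the same length in the table. These shares count any middle letter, TGAATCA included. Of the 4 further motifs searched on both strands, the GC box letters GGGCGG were in 5 of the 6 genes (35.4% of all genes), with 6 matches in Serpine2 and none in Serpinb2. TATAAA was in 2 of the 6, Serpinb2 and Tfpi (14.3% of all genes), and the NF-kB consensus and TGACG were in none (8.23% and 19.8% of all genes). No match of the 5 motifs overlapped a match of another in the windows shown. These matches describe letters, and no binding was measured.

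Total counts were similar between the groups, 24101163 to 27025227 per sham library and 23067967 to 29991945 per BDL library. What filled them differed, since 20 pancreatic acinar genes took 9.66% to 24.0% of the sham counts and 0.00727% to 1.56% of the BDL counts. Counts were therefore divided by size factors before levels were compared, and all levels below are such normalized counts unless given per kilobase. Markers of biliary epithelium (Krt19, Krt7, Epcam and others) were high in every library, with summed levels of 135348 to 191102 in sham EHBDs and 310871 to 463673 after BDL. BDL replicate 4 stood apart from the other 4 BDL libraries, and its values are given beside each result they touch.

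After BDL, 5 of the 9 genes rose and 2 fell, and the remaining 2 were not called (edgeR's quasi-likelihood test with sex as a term, adjusted p under 0.05 over the 21299 genes tested). Over all tested genes, 21.4% rose and 19.9% fell. The genes that rose were Plaur, Plat, Serpinb2, F3 and Tfpi2, and those that fell were Serpine2 and Thbd. The median log2 fold change of the 9 genes was 1.69, and that of all tested genes was -0.03. The sham and BDL libraries did not overlap for 6 of the 9, a property of 38.2% of all tested genes. In whole ducts, fewer cells of a type and less RNA per cell cannot be told apart.

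**Figure D1:**
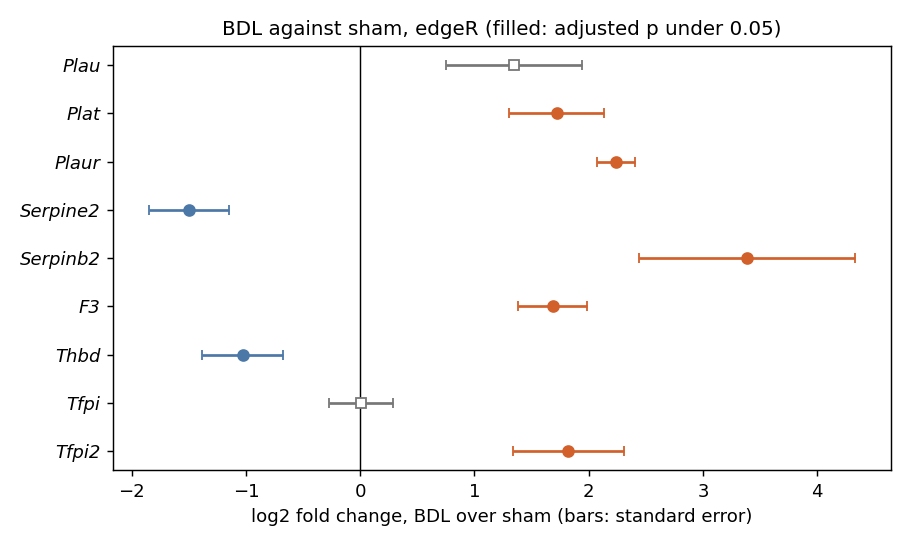
Log2 fold changes of BDL over sham for the 9 genes (x axis, log2 units; bars are standard errors from edgeR; filled circles passed an adjusted p of 0.05, open squares did not). Plaur (2.24), Plat (1.72), Serpinb2 (3.38), F3 (1.69) and Tfpi2 (1.82) lie to the right of 0, Serpine2 (-1.50) and Thbd (-1.03) to the left, and Tfpi (0.01) on it.

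Among the activators, Plau and Plat stood far apart in level. Plau (ENSMUSG00000021822, chromosome 14 of GRCm39 from 20886722 to 20893453), which encodes urokinase, had only 1 to 27 raw counts in any library. Its normalized counts were 2.57, 10.9, 9.18 and 2.31 in sham replicates 1, 2, 5 and 7, and 19.0, 12.3, 18.5, 11.7 and 14.7 in BDL replicates 3, 4, 6, 8 and 10. Every BDL library was above every sham library, by a small margin between the highest sham and the lowest BDL value. The log2 fold change of 1.34 (standard error 0.60) did not pass (adjusted p = 0.0981 with edgeR, unadjusted p = 0.0485), and at this depth a change of this size could not be resolved.

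Plat (ENSMUSG00000031538, chromosome 8 from 23247709 to 23272871), which encodes tissue plasminogen activator, was abundant and rose. Its normalized counts were 1850, 1759, 1821 and 841 in the sham libraries, in the order above, and 4441, 7276, 7544, 1941 and 3989 in the BDL libraries. The groups did not overlap, but sham replicate 7 was far below the other sham libraries and BDL replicate 8 came close to the highest of them. Plat averaged 1568 ± 486 (SD, n = 4) without and 5038 ± 2363 (SD, n = 5) with ligation. On the log2 scale this was a rise of 1.72 with a standard error of 0.41 (edgeR adjusted p = 0.00847), or 3.29-fold. With only sham replicates 1 and 5, the libraries with the smallest acinar shares, the call was lost (log2 fold change 1.44, edgeR adjusted p = 0.0735). In normalized counts, Plau was at no more than 0.619% of the Plat level in any library.

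The urokinase receptor gene Plaur (ENSMUSG00000046223, chromosome 7 from 24161875 to 24175394) showed the change with the smallest p of the 9. Normalized counts were 615, 744, 571 and 906 in the sham libraries and 2909, 3945, 3447, 2844 and 3200 in the BDL libraries. All BDL libraries lay close together, well above all sham libraries. The sham mean was 709 ± 150.2 (SD, n = 4) and the BDL mean 3269 ± 448 (SD, n = 5). This 4.72-fold rise was 2.24 on the log2 scale (standard error 0.16, edgeR adjusted p = 1.76e-05). Neutrophils and monocytes carry this receptor too, and 9 of 10 neutrophil markers rose. The summed neutrophil markers went from 136 to 742 in sham libraries to 2591 to 25333 after BDL, and Ly6g, a defining neutrophil marker, was at 0 in all 4 sham libraries. Of 10 monocyte and macrophage markers 3 rose and 7 did not pass, with overlapping sums of 15780 to 29725 in sham EHBDs and 7062 to 40408 after BDL. In BDL replicate 4, Plaur was at its highest while the neutrophil and the monocyte and macrophage sums were at their lowest of the BDL libraries, and the part of these cells in the Plaur change was not tested.

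**Figure D2:**
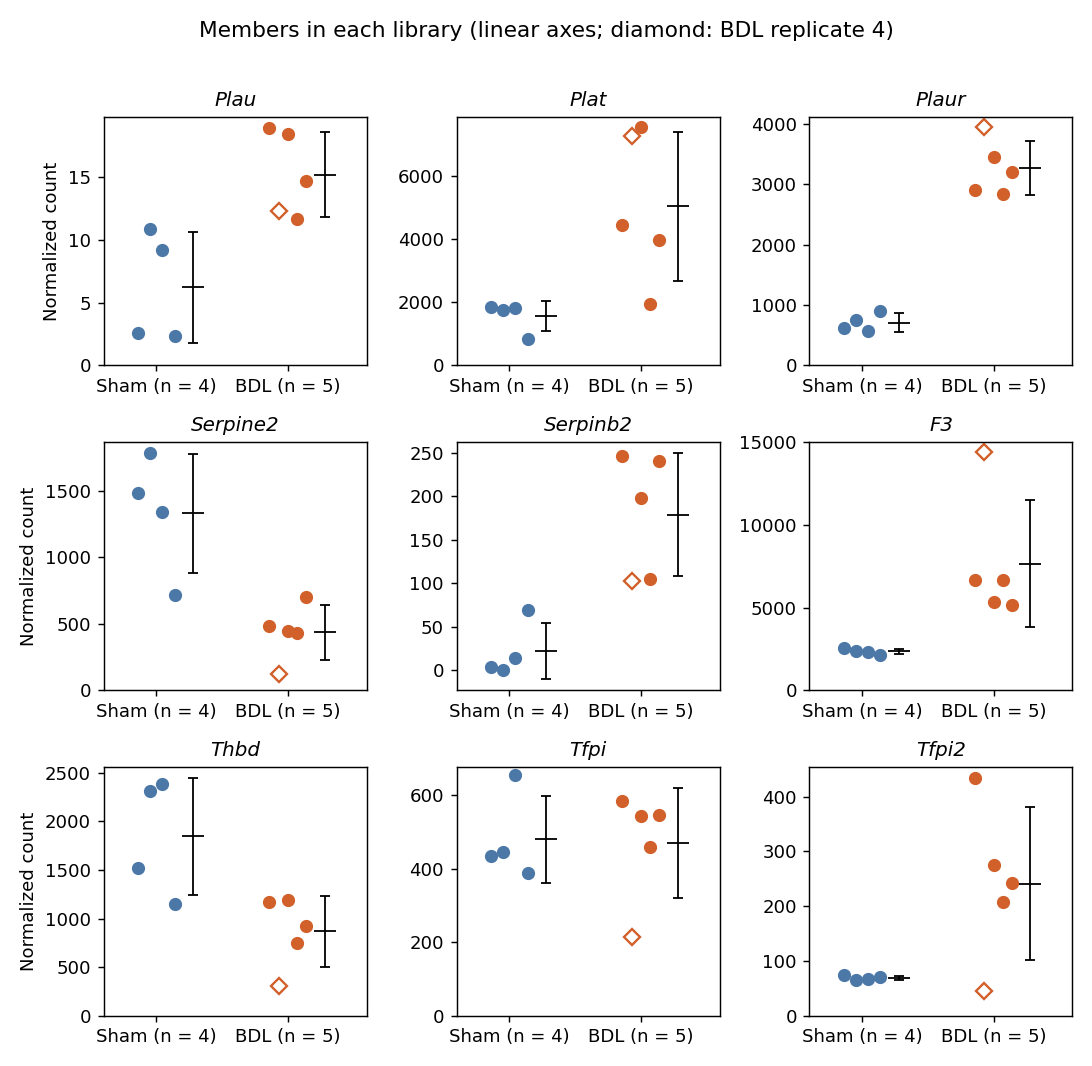
Normalized counts (y axes, linear, 1 panel per gene) of the 9 genes in 4 sham libraries (blue) and 5 BDL libraries (orange), with mean and SD in black at the right of each group and BDL replicate 4 as an open diamond. Plaur, Plat, F3, Serpinb2, Plau and Serpine2 show no overlap between the groups, and Thbd, Tfpi and Tfpi2 overlap.

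The inhibitors of the activators moved in opposite directions. Serpine2 (ENSMUSG00000026249, chromosome 1 from 79763323 to 79839144) encodes protease nexin-1, a serpin of the cell surface and matrix that inhibits urokinase, tissue plasminogen activator and thrombin. It was at 1481, 1781, 1338 and 715 normalized counts in the sham libraries and at 485, 121, 448, 431 and 701 in the BDL libraries. No BDL library reached the lowest sham library, though BDL replicate 10 came near to sham replicate 7, and BDL replicate 4 was by far the lowest. Serpine2 fell by 1.50 on the log2 scale (standard error 0.35, edgeR adjusted p = 0.00722), and its level was 2.83-fold lower after BDL. Fibroblasts and smooth muscle express this gene, and 5 of 10 markers of each fell and 0 rose. The fibroblast sum was 83973 to 139822 in sham EHBDs and 13207 to 102993 after BDL, and the smooth muscle sum 10210 to 26892 and 2926 to 15947, so both overlapped. Their part in the Serpine2 difference was not tested.

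Serpinb2 (ENSMUSG00000062345, chromosome 1 from 107428593 to 107463208) encodes PAI-2, a mostly intracellular serpin that inhibits urokinase and is induced by inflammation in macrophages and epithelia. It was scarce in sham EHBDs, at 4.28, 0, 14.4 and 69.2 normalized counts, and reached 246, 103, 198, 105 and 241 after BDL. The groups did not overlap, and sham replicate 7 was well above the other sham libraries. Its log2 fold change of 3.38 (standard error 0.95, edgeR adjusted p = 0.0174) was the largest of the 9 and had the largest standard error. The call was lost without sham replicate 1 (adjusted p = 0.0565, edgeR) and without sham replicate 5 (0.0507). Without sham replicate 7 the log2 fold change was 4.81. Its gene model overlaps that of Serpinb10 on the same strand, which had 0 to 22 counts in any library.

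Tissue factor was the most abundant of the 9 genes per kilobase of transcript in both groups. F3 (ENSMUSG00000028128, chromosome 3 from 121516610 to 121528820) was at 2589, 2367, 2325 and 2172 normalized counts in the sham libraries and at 6700, 14410, 5340, 6690 and 5160 in the BDL libraries. The sham libraries were nearly level with each other, and all BDL libraries lay at about the same multiple of them except replicate 4, which stood far higher. F3 rose 3.22-fold, or by 1.69 on the log2 scale (standard error 0.30, edgeR adjusted p = 0.00180). Without BDL replicate 4 the log2 fold change was 1.38 and the adjusted p was 9.46e-05. Of 10 biliary epithelial markers 7 rose and 3 did not pass, their sums (135348 to 191102 and 310871 to 463673, as above) did not overlap, and the highest stood in replicate 4, as for F3. After each group's mean was subtracted, F3 and this sum gave a Pearson r of 0.65 over 9 libraries (log2 levels) and 0.17 without BDL replicate 4. F3 gave -0.74 with the monocyte and macrophage sum over 9 libraries and 0.79 without that replicate. With the platelet and megakaryocyte sum the values were -0.79 and 0.82, and with the fibroblast sum -0.82 and 0.17. The part of these cells in the F3 difference was not tested. An opposite-strand gene model, Gm43823, overlaps F3 and held 4 to 17 counts, and whether the counting used strand is not given in the sources used here.

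Both brakes named in the background, Thbd and Tfpi, showed no rise. Thbd (ENSMUSG00000074743, chromosome 2 from 148216045 to 148250201) was at 1520, 2316, 2391 and 1155 normalized counts in the sham libraries and at 1170, 309, 1195, 743 and 928 in the BDL libraries. The groups overlapped through sham replicate 7, which was below BDL replicates 3 and 6, and BDL replicate 4 was again the lowest. Thbd fell by 1.03 on the log2 scale (standard error 0.36, edgeR adjusted p = 0.0423), from 1845 ± 606 (SD, n = 4) to 869 ± 364 (SD, n = 5). This call was lost on leaving out any 1 of sham replicates 1, 2 and 5 (edgeR adjusted p = 0.0519, 0.100 and 0.176) or any 1 of BDL replicates 3, 8 and 10 (0.0610, 0.0719 and 0.0861), and with only sham replicates 1 and 5 (0.110). Without BDL replicate 4 Thbd had a log2 fold change of -0.82 and an adjusted p of 0.0255. Markers of blood endothelium, where Thbd is classically found, also fell, 7 of 10 with none rising. Their summed level was 10270 to 17667 in sham EHBDs and 5467 to 8797 after BDL, with no overlap, and their part in the Thbd difference was not tested. The mesothelium, another site of Thbd, had 8 of 10 markers lower and Msln higher.

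Tfpi (ENSMUSG00000027082, chromosome 2 from 84263195 to 84307164), the inhibitor of the complex of tissue factor and factor VII, was at 435, 446, 654 and 387 normalized counts in the sham libraries and at 583, 215, 544, 458 and 546 in the BDL libraries. The groups overlapped throughout, with BDL replicate 4 below every other library. The log2 fold change was 0.01 (standard error 0.28, edgeR adjusted p = 0.988), and its sign changed among the alternative settings, from -0.18 to 0.38. A change within this spread could not be resolved.

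Tfpi2 (ENSMUSG00000029664, chromosome 6 from 3962589 to 3988964) encodes a related Kunitz inhibitor deposited in matrix that acts on plasmin and trypsin more than on tissue factor. Its normalized counts were 73.6, 65.3, 66.8 and 71.5 in the sham libraries and 434, 45.0, 276, 208 and 242 in the BDL libraries. The sham libraries were nearly identical, 4 of the 5 BDL libraries stood clear above them, and BDL replicate 4 was below them all. Tfpi2 rose 3.53-fold, or by 1.82 on the log2 scale (standard error 0.49, edgeR adjusted p = 0.0139). Without BDL replicate 4 this was 2.09 with an adjusted p of 0.000226, and the groups then did not overlap. With only sham replicates 1 and 5 the log2 fold change was 1.81 and the call was lost (edgeR adjusted p = 0.0970).

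Per kilobase of the canonical transcript, the order of levels in sham EHBDs was F3 (mean 1185 normalized counts per kilobase), Plat (605), Serpine2 (601), Thbd (496), Plaur (460), Tfpi (224), Tfpi2 (43.9), Serpinb2 (11.1) and Plau (2.65). Neighbours from Plat through Plaur overlapped in range, as did Serpinb2 and Plau. After BDL the order per kilobase was F3 (3840), Plaur (2123), Plat (1945), Thbd (233), Tfpi (219), Serpine2 (198), Tfpi2 (153), Serpinb2 (90.6) and Plau (6.48). There, Plaur and Plat overlapped in range and so did each neighbouring pair from Thbd through Serpinb2. Serpine2 went from the third place to the sixth, and Thbd was the fourth in both groups.

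**Figure D3:**
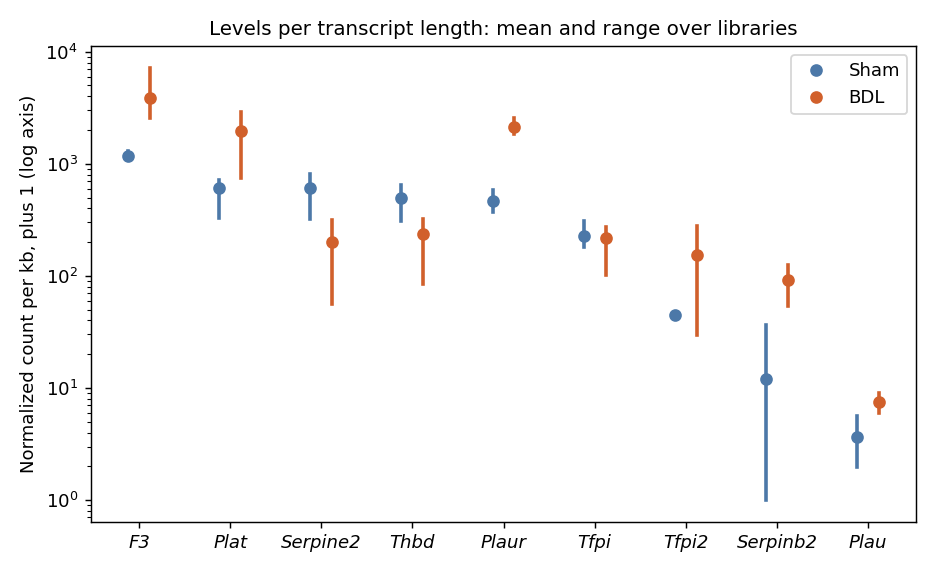
Normalized count per kilobase of canonical transcript plus 1 (y axis, log scale) for each gene, as mean (points) and range over libraries (lines), in 4 sham (blue) and 5 BDL (orange) libraries. F3 is highest in both groups, Plaur and Plat separate from the rest after BDL, and Plau is lowest in both.

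Ratios of genes within a library depend little on scaling between libraries where both genes are abundant. The ratio of F3 to Thbd (with 1 added to each normalized count) was 1.70, 1.02, 0.973 and 1.88 in the sham libraries and 5.72, 46.5, 4.46, 8.99 and 5.56 in the BDL libraries. The groups did not overlap, and the BDL libraries other than replicate 4 lay between 4.46 and 8.99. The mean log2 ratio was 2.75 higher after BDL (two-sided exact permutation test over 126 labelings, p = 0.00794, the smallest this design allows, and 0.0265 adjusted over the 5 ratios). Without BDL replicate 4 the difference was 2.16.

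The ratio of F3 to Tfpi went from 3.55 to 5.94 in sham libraries to 9.43 to 66.6 after BDL, a log2 difference of 1.67 (exact permutation p = 0.0159, adjusted 0.0265), and 1.16 without BDL replicate 4. It did not pass without sham replicate 1, 2 or 5 (adjusted exact permutation p = 0.0595, 0.0595 and 0.119). Tfpi2 to Tfpi went from 0.104 to 0.187 in sham libraries to 0.213 to 0.745 after BDL, a log2 difference of 1.56 (exact permutation p = 0.0159, adjusted 0.0265), higher in all 5 BDL libraries, replicate 4 included. By contrast, Plaur to Plau overlapped between groups (log2 difference 0.84, exact permutation p = 0.183, adjusted 0.228), as did Plau to Plat (-0.22, exact permutation p = 0.690, adjusted 0.690). Both rest on the few Plau counts and moved with the number added to each level. Without sham replicate 7 Plaur to Plau passed (log2 difference 1.26, adjusted exact permutation p = 0.0446).

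**Figure D4:**
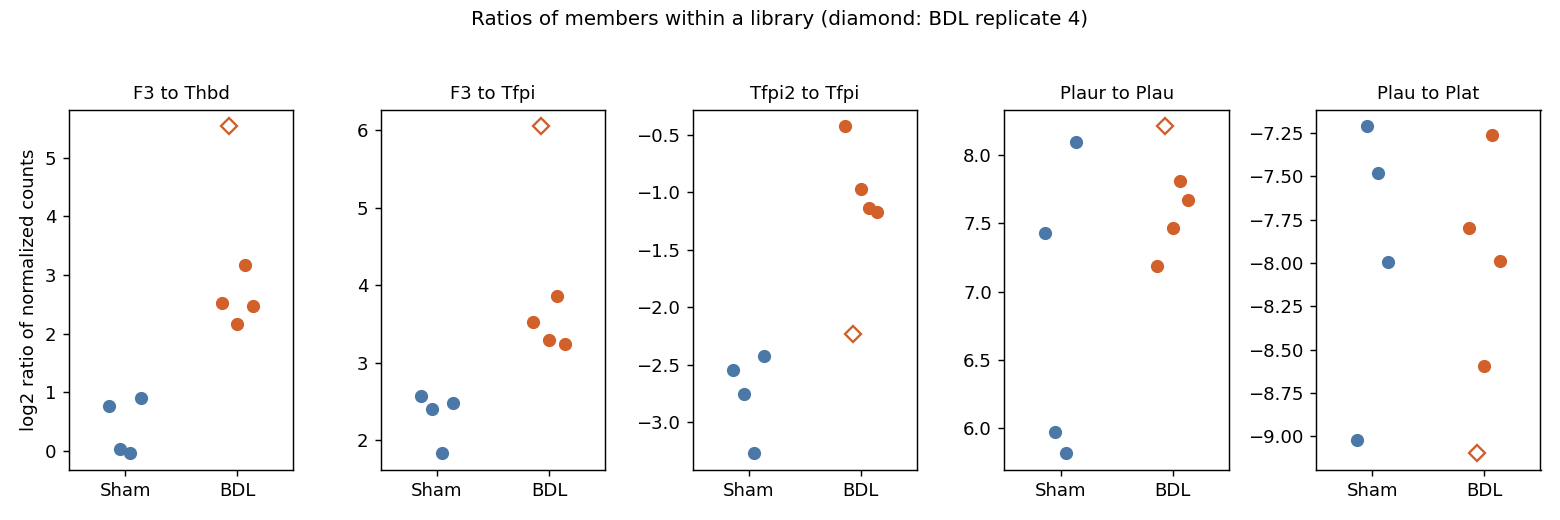
Log2 ratios of normalized counts within each library (y axes, log2 units, 1 panel per ratio) in 4 sham (blue) and 5 BDL (orange) libraries, BDL replicate 4 as an open diamond. F3 to Thbd, F3 to Tfpi and Tfpi2 to Tfpi separate the groups, and the ratios with Plau overlap.

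BDL replicate 4 held the lowest value of the 5 BDL libraries for 5 of the 9 genes (Serpine2, Serpinb2, Thbd, Tfpi and Tfpi2) and the highest for F3 and Plaur. The same library had the lowest summed fibroblast markers, 13207 against 49254 to 102993 in the other 4 BDL libraries, and the lowest monocyte and macrophage markers, 7062 against 22940 to 40408. Its endothelial sum of 5467 (7364 to 8797 in the others) and its platelet and megakaryocyte sum of 862 (3623 to 6127) were lowest too, while its biliary epithelial sum of 463673 was above their 310871 to 392659. Msln made up nearly all of its mesothelial sum, and the other 9 mesothelial markers together were at 165 in replicate 4 and at 279 to 848 in the other BDL libraries. Serpinb2 in replicate 4 was level with replicate 8. Sham replicate 7, the library with the largest acinar share (24.0%), held the lowest sham value for 6 of the 9 genes and the highest for Plaur and Serpinb2. Its fibroblast (83973), endothelial (10270) and monocyte and macrophage (15780) sums were the lowest of the sham libraries. Its biliary epithelial sum (191102) was the highest of them, against 135348 to 170951 in the others. The part of these markers in the values of the 9 genes was not tested.

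**Figure D5:**
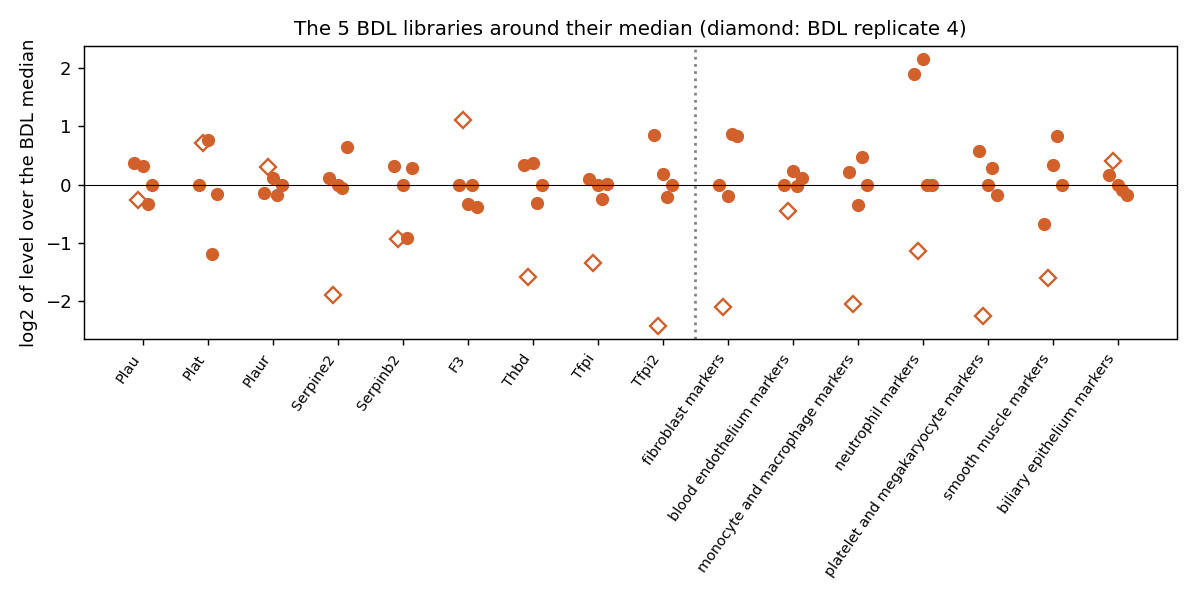
Level in each of the 5 BDL libraries over the BDL median (y axis, log2 units) for the 9 genes, left of the dotted line, and for summed markers of 7 cell types, right of it. Replicate 4 (open diamond) is lowest for Serpine2, Thbd, Tfpi, Tfpi2, by a small margin for Serpinb2, and for 6 of the 7 marker sums, and highest for F3, Plaur and the biliary epithelial sum.

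Within groups, after each group's mean was subtracted, Thbd and Tfpi varied together over the 9 libraries (Pearson r = 0.93 on log2 normalized counts), as did Tfpi and Tfpi2 (0.87) and Serpine2 and Thbd (0.87). F3 varied against Tfpi2 (-0.86) and Tfpi (-0.84). These values are descriptions, and they rest in part on 1 library. Without BDL replicate 4, over 8 libraries, Thbd with Tfpi gave 0.77, Serpine2 with Thbd 0.57 and Tfpi with Tfpi2 0.25, and F3 gave 0.28 with Tfpi2 and -0.08 with Tfpi. Among 11765 genes, those most like Serpine2 by the same measure over the 9 libraries were Srpx (0.99), Slit3 (0.98) and Galnt16 (0.98), and those most like Thbd were Fgfr1, Chsy1 and Ppp1r3d (0.97 each). For F3 they were Cilk1 (0.96), Cbx7 (0.95) and Dcun1d2 (0.95), and for Plaur Dnaaf5 (0.99), Yrdc (0.98) and Dcun1d5 (0.98).

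Sex was a term in the test, and 8 of the 9 genes had the same sign of change in females (2 sham, 3 BDL) and males (2 sham, 2 BDL). Tfpi was the exception, with log2 ratios of group means of -0.36 in females and 0.36 in males. Plaur was alike in both, 2.21 and 2.17, and F3 was 1.97 in females and 1.26 in males, where the female BDL libraries include replicate 4. Serpinb2 went from a mean of 41.8 to 135 normalized counts in females and from 2.14 to 243 in males. Its sex by surgery interaction had an unadjusted p of 0.00374 with edgeR (adjusted p = 0.9999) and of 5.93e-05 with DESeq2 (adjusted p = 0.150). It failed the adjustment with both tools, so a sex difference was not shown. None of the 9 interactions passed with either tool, and 1 of the 9 had an unadjusted p under 0.05. The form of the animal names, opening with 1 digit (sham replicates 5 and 7, BDL replicates 4 and 6) or 4 digits, also split the libraries. By this split, too, Tfpi alone differed in sign (-0.45 and 0.26), and in the sham group the split coincides with sex, so name form and sex cannot be told apart there.

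The acinar share did not overlap between groups, so it and surgery cannot be told apart. With the summed acinar level as a further term, Plaur stayed called (log2 fold change 1.97, edgeR adjusted p = 0.00325) and the other 6 calls were lost. Plat had a log2 fold change of 0.13 in that fit (adjusted p = 0.906), F3 of 1.20 (0.174), Tfpi2 of 2.49 (0.0958) and Serpine2 of -1.24 (0.311). Serpinb2 had 4.70 (0.137) and Thbd -0.87 (0.496).

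Around the 9 genes, 21 further genes of the plasminogen system were tested, of which 6 rose and 7 fell. Their median log2 fold change of -0.74 moved by over 1.5 times on leaving out any 1 of sham replicates 1, 2 and 5 (-0.35, -0.48 and -0.48) or BDL replicates 3 and 10 (-0.30 and -0.36), and was -0.14 with no sex term. With the acinar term 3 were higher and 1 lower, and all 7 that fell without the term lost the call. The lower gene was Klkb1 (log2 fold change -11.7, edgeR adjusted p = 0.00435). It held only 61 counts over all libraries and was not called without the term (edgeR adjusted p = 0.0669). Of the genes named next, Anxa2 and Eno1 (edgeR adjusted p = 0.00221 and 0.0151) kept the call in the fit with the acinar term and the other 5 lost it (0.0623 to 0.297). Anxa2 (log2 fold change 2.42, edgeR adjusted p = 4.09e-05) and S100a10 (1.02, 0.00131), whose proteins form a surface complex that binds plasminogen and tissue plasminogen activator, rose, and so did Eno1 (1.47, 0.000167), a glycolytic enzyme that also binds plasminogen at the cell surface. Vtn (-3.78, 0.00229), which encodes vitronectin, a matrix ligand of the urokinase receptor, fell, as did Serpini1 (-2.55, 0.00185), an inhibitor of tissue plasminogen activator. Serping1, the C1 inhibitor (-2.86, 0.000613), and Vldlr, an endocytic receptor of protease and inhibitor complexes (-2.22, 0.000395), fell too. Plg, the gene for plasminogen itself and made mainly by hepatocytes, was at 0 to 11.5 normalized counts in 8 libraries and at 329 in BDL replicate 6. The summed hepatocyte markers were 27262 in that library, 4780 to 14601 in the other BDL libraries and 19653 to 94360 in the sham libraries. Plg did not follow this sum, of which Cyp2e1 and Hp were the largest parts by sham mean (33028 and 13836). Alb was at 3585 in BDL replicate 6, at 3.68 to 18.0 in the other BDL libraries and at 51.1 to 242 in sham libraries. Apoa1 was at 2530, 0 to 15.9 and 3.93 to 133, in that order. Ttr (1840) and Cyp2e1 (845) did not peak in BDL replicate 6. The part of liver RNA in the Plg value was not tested.

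Of 16 genes for coagulation factors and fibrinogen, 2 rose, 1 fell and 13 did not pass. Fgg, a fibrinogen chain chosen after its values were seen, was at 2541 normalized counts in BDL replicate 6, at 0.775 to 19.0 in the other BDL libraries and at a sham mean of 52.2 ± 41.5 (SD, n = 4). The other fibrinogen chains, Fga (3332) and Fgb (3234), likewise picked afterwards, were highest in that library too, as was the hepatocyte marker Alb. F7 (75.3) and F10 (450) were not highest there. The part of liver RNA in these values was not tested. The median log2 fold change of the list, 1.32, changed sign without BDL replicate 6 (-1.96 over the 13 genes then tested, of which 3 fell) and without sham replicate 7 (-0.20), and was 0.17 without sham replicate 5, so it gives no direction. F7, the partner of tissue factor, went from 1.31 to 6.85 normalized counts in sham libraries to 14.7 to 128 after BDL (log2 fold change 4.36, edgeR adjusted p = 0.00125). F10, the next factor in the chain, went from 12.7 to 30.1 to 54.9 to 460 (3.86, 0.00145), and both were lowest in BDL replicate 4 among the BDL libraries. Vwf, an endothelial and platelet protein, fell (-1.62, 0.00129). Of 7 other anticoagulant genes 0 passed with edgeR, and 2 had an unadjusted p under 0.05. Under the alternatives 0 to 2 of the 7 passed as lower, 1 with DESeq2, upper-quartile scaling, filterByExpr and without sham replicate 7, and 2 with no filter and without BDL replicate 6. Their median log2 fold change, -0.24, ranged from -0.67 without BDL replicate 6 to -0.14 without BDL replicate 10 on leaving out 1 library, and was -2.14 with the acinar term. Of 4 protease-activated receptors F2rl1, the receptor cut by trypsin and by the complex of tissue factor and factor VII, rose (1.19, 0.000656), and the other 3 did not pass, although 2 of the 4 passed as higher without BDL replicate 4. Of 15 genes of the Kunitz and clade B serpin families, Serpinb5 rose (2.49, 9.19e-05) and 12 did not pass. App (-0.64, 0.00604) and Aplp2 (-1.02, 0.00120) fell. Without BDL replicate 8, 2 of the 15 passed as higher. With the acinar term F7 (edgeR adjusted p = 0.0144), F10 (0.0416) and Serpinb5 (0.00868) kept the call, and Vwf (0.123), F2rl1 (0.158), App (0.368) and Aplp2 (0.153) lost it.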

How the data were processed

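Whole EHBDs of 4 sham and 5 BDL mice were sequenced as paired-end SMART-Seq mRNA libraries. Trimmed reads were counted by the authors with Salmon on the Gencode vM33 transcripts of GRCm39 and summed to genes with tximeta, and the values deposited by the authors are estimated counts in whole numbers, with no normalization. Surgery came from the labels and sex from the deposited sheet. No library pair was identical, so each counted as 1 replicate.

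The 21299 genes whose counts came to at least 10 over the 9 libraries were tested with edgeR 4.0.16 in R 4.3.3 (quasi-likelihood test, TMM, sex beside surgery, Benjamini-Hochberg, called under 0.05), although the study used DESeq2. Standard errors are the log2 fold change over the root of F. Levels are counts over the size factors of DESeq2 1.42.0. Ratios had 1 added to each level and were tested by two-sided exact permutation. Levels per kilobase used canonical transcripts of Gencode vM39. Gene positions are on GRCm39.

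All 9 genes are named, with the up to 4 called genes of smallest p each way in each further list, and for likeness the 3 closest genes with a mean of at least 100 normalized counts. A gene that the rule names is not reported here. The genes, lists and tests were chosen with earlier results of these data known. Plg, Klkb1, Fga, Fgb, Fgg, Alb, Apoa1 and Hp were named after their values were seen. Ly6g and Epcam were named outside the naming rule. Alternatives were DESeq2, 3 other scalings, 2 other filters, no sex term, an acinar term, only sham replicates 1 and 5 (those with the smallest acinar shares), a threshold of 0.01, other pseudocounts and each library left out.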

Additional observations from a re-analysis of the deposited data

Results flagged for a closer look

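Groups of 4 or 5 libraries were screened for a highest or lowest value far from the rest by Dixon's test at its 95% limit, in 18 groups (9 genes in sham and in BDL). Chance marks about 1 in 20 groups, and 2 of the 18 were marked. Plat was at 841 normalized counts in sham replicate 7, below the other 3 sham libraries at 1759 to 1850. F3 was at 14410 normalized counts in BDL replicate 4, above the other 4 BDL libraries at 5160 to 6700.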

How the results depend on the processing

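Of 133 fold changes of the 7 called genes under the alternatives, 20 lost the call, and no called change reversed. The counts of calls under DESeq2, the other scalings, the other filters and no sex term stayed at 5 higher and 2 lower. Upper-quartile scaling moved the median of all genes by -0.15. The acinar term left 1741 calls over all genes, with 1 of the 9 higher and 0 lower. With only sham replicates 1 and 5, 3 were higher and 1 lower, and the ratios differed by 2.81 for F3 to Thbd (adjusted exact permutation p = 0.119), 1.79 for F3 to Tfpi (0.179) and 1.72 for Tfpi2 to Tfpi (0.119), with only 21 labelings to test over. A threshold of 0.01 left 5763 calls, 3 higher and 1 lower. Adding 10 to each level in place of 1 made Plaur to Plau 1.53 (adjusted exact permutation p = 0.0198) and Plau to Plat -0.92 (0.0556), and adding 0 made them 0.62 (0.427) and 0.00 (0.992). With 1 library left out, calls ranged from 7176 to 8746 over all genes, and from 4 to 5 higher and 1 to 2 lower of the 9. The ratios then ranged from 2.16 to 3.01 for F3 to Thbd, 1.16 to 1.86 for F3 to Tfpi (adjusted exact permutation p = 0.0446 to 0.119), 0.50 to 1.26 for Plaur to Plau, -0.59 to 0.02 for Plau to Plat and 1.37 to 1.82 for Tfpi2 to Tfpi. The causes were not tested. No paired analysis was possible because the labels give sham and BDL libraries no shared replicate numbers. Plau had at most 27 counts in any library, which limits its values.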
